A study of Homo sapiens with 12 samples.

Results

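The genes described here are 42 that encode collagens, laminins, the proteins that link them in basement membranes, fibronectin and other matrix glycoproteins, matrix proteoglycans, and 4 enzymes that crosslink or modify the matrix. They were taken by symbol from a list of 42 names, and every name had a row among the 23583 features of the deposited gene count table. Of the 42, 40 were among the 16946 features that passed the filter on low counts, and COL5A1 and FBN2 did not pass. The study measured gene expression by RNA sequencing in a pair of liver carcinoma lines in which circASH2, a circular RNA named after the gene ASH2L, was knocked down, with metastasis as its stated interest. Both are established human lines from hepatocellular carcinoma. Huh7 is known for secreting many liver proteins, and HCCLM3 for spreading readily when grown in mice. All 4 groups were given an siRNA, either that against the circle (si-circASH2) or the negative control (si-NC). The groups were Huh7 si-NC, Huh7 si-circASH2, HCCLM3 si-NC and HCCLM3 si-circASH2, with 3 libraries each. The labels name no siRNA sequence, time after transfection, clone or culture, so each p-value rests on library-to-library spread, and this spread may be technical.

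Basement membranes are sheets in which a laminin network, which binds to cells, and a collagen IV network are joined by nidogens and by heparan sulphate proteoglycans such as perlecan. Interstitial matrix is built instead from fibrillar collagens, fibronectin and microfibrils of fibrillin, with proteoglycans between them, and is stiffened by lysyl oxidases and transglutaminase. In liver, hepatocytes secrete much of the fibronectin and vitronectin found in plasma, whereas stellate cells and fibroblasts are the usual source of fibrillar collagen, and carcinoma cells can make matrix of their own.

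Total counts ranged from 29006781 to 30858895 per library, so that 3 counts in a library correspond to between 0.0981 and 0.105 CPM (counts scaled to library size with edgeR's TMM factors). circASH2 itself was not measured by these gene counts. The host gene ASH2L changed by -0.19 ± 0.05 (log2 fold change ± standard error) in Huh7 and by -0.24 ± 0.05 in HCCLM3. Both falls were called (adjusted p = 0.00304 and 0.0014 by edgeR). The part of the circle in the changes given below was not tested. The labelled cell type was checked against 16 hepatocyte and liver carcinoma markers. All 16 were at 1 CPM or more in Huh7 si-NC, with a summed level of 41503 to 41649 CPM. In HCCLM3 si-NC 10 of 16 reached 1 CPM, the sum was 291 to 295 CPM and GPC3 had no count. The strand of the libraries is not given in the sources used here, so reads from overlapping or antisense genes cannot be told apart.

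Matrix genes differed between si-circASH2 and si-NC in both lines, and the called genes were mostly higher in Huh7 and mostly lower in HCCLM3. In Huh7 18 of the 40 tested genes rose, 5 fell and 17 did not pass the test (edgeR quasi-likelihood test, Benjamini-Hochberg adjusted p under 0.05 over all features). That is 57.5% called, against 31.4% of all features tested, of which 16.3% rose and 15.1% fell. In HCCLM3 6 rose, 14 fell and 20 did not pass, which is 50% called, against 30.6% of all features, of which 15.1% rose and 15.5% fell. The median log2 fold change of the 40 genes was 0.19 in Huh7, beside 0.01 over all features, and -0.13 in HCCLM3, beside 0.00 over all features. The 3 si-circASH2 libraries did not overlap the 3 si-NC libraries for 25 of 40 genes in Huh7, 21 of them higher, while 42.7% of all features showed no overlap. In HCCLM3 25 of 40 also showed no overlap, 16 of them lower, beside 43.7% of all features. A single value in 3 against 3 libraries cannot reach an exact two-sided permutation p below 0.1.

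The difference between the lines was itself tested, as the knockdown effect in HCCLM3 minus that in Huh7. It was below zero for 17 genes and above zero for 2 genes (COL6A2 and COL18A1), and 21 did not pass. These 19 genes are 47.5% of those tested, against 20.9% of all features, of which 11.3% were below and 9.60% above zero. The median of this difference was -0.36 over the 40 genes and -0.02 over all features. It was -0.29 over 38 genes when groups with no count were set at 3 counts, or the gene was left out. By direction of call, 7 genes rose in Huh7 and fell in HCCLM3 (COL4A5, LAMB2, HSPG2, SPARC, VCAN, BGN and TGM2), and no gene did the reverse. The genes LAMA4, FBN1, TNC and LUM rose in both lines, and NID1, FBLN1, FN1 and PLOD2 fell in both. A further 7 rose in Huh7 without passing in HCCLM3 (COL1A2, COL3A1, COL12A1, LAMB1, AGRN, THBS1 and LOXL2), 1 fell there without passing in HCCLM3 (LAMC1), 2 rose in HCCLM3 without passing in Huh7 (COL6A2 and COL6A3) and 3 fell in HCCLM3 without passing in Huh7 (LAMA3, LAMA5 and LAMB3). The remaining 12 passed in neither line. The share of all features with each of these patterns was not counted, so the pattern counts have no background beside them. Among the genes with opposite calls, those of LAMB2 in Huh7 and of VCAN and BGN in HCCLM3 were lost under some alternatives, as given below.

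Markers of matrix-producing cells other than carcinoma cells were low. The summed level of 14 stellate cell and fibroblast markers went from 12.8–14.5 CPM in Huh7 si-NC to 15.3–18.3 CPM in Huh7 si-circASH2, and from 3.05–3.86 to 4.14–4.73 CPM in HCCLM3. Of 7 tested markers of this list none was called in HCCLM3 and 1 in Huh7 (14.3%). This was the growth factor receptor PDGFRB, at 4.85 CPM and then 7.77 CPM. In HCCLM3 the list was led by DCN, at 1.67 CPM and then 2.28 CPM. Of the 14 markers, 4 were at 1 CPM or more in Huh7 si-NC, and 6 (DCN, THY1, FAP, PDPN, TCF21 and POSTN) had no count there. In HCCLM3 si-NC 1 reached 1 CPM and 8 had no count. Of the 16 hepatocyte and liver carcinoma markers 6 fell and 1 rose in Huh7 (43.8% called), and 3 rose in HCCLM3 (18.8%). Over all features 31.4% were called in Huh7 and 30.6% in HCCLM3. The sum of these markers in si-circASH2 was 37866 to 38728 CPM in Huh7 and 327 to 330 CPM in HCCLM3. Of 6 tested leukocyte markers 1 rose and 2 fell in Huh7, and 3 rose in HCCLM3 (50% called in each line). The sums of the 11 leukocyte markers were 383–420 CPM and then 338–365 CPM in Huh7, and 175–196 CPM and then 227–271 CPM in HCCLM3. Most of each si-NC sum was 1 gene, LYZ at 375 CPM in Huh7 and CD68 at 154 CPM in HCCLM3. In each line's si-NC libraries 3 of the 11 reached 1 CPM. PTPRC, CD3E, CD163 and NKG7 had no count in Huh7 si-NC, nor CD3E and CD4 in HCCLM3 si-NC. Of 4 tested endothelial markers 2 fell in HCCLM3 (50%) and none was called in Huh7. The part of these markers in the results was not tested, and in bulk libraries fewer cells of a type and less RNA per cell cannot be told apart.

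**Figure D1:**
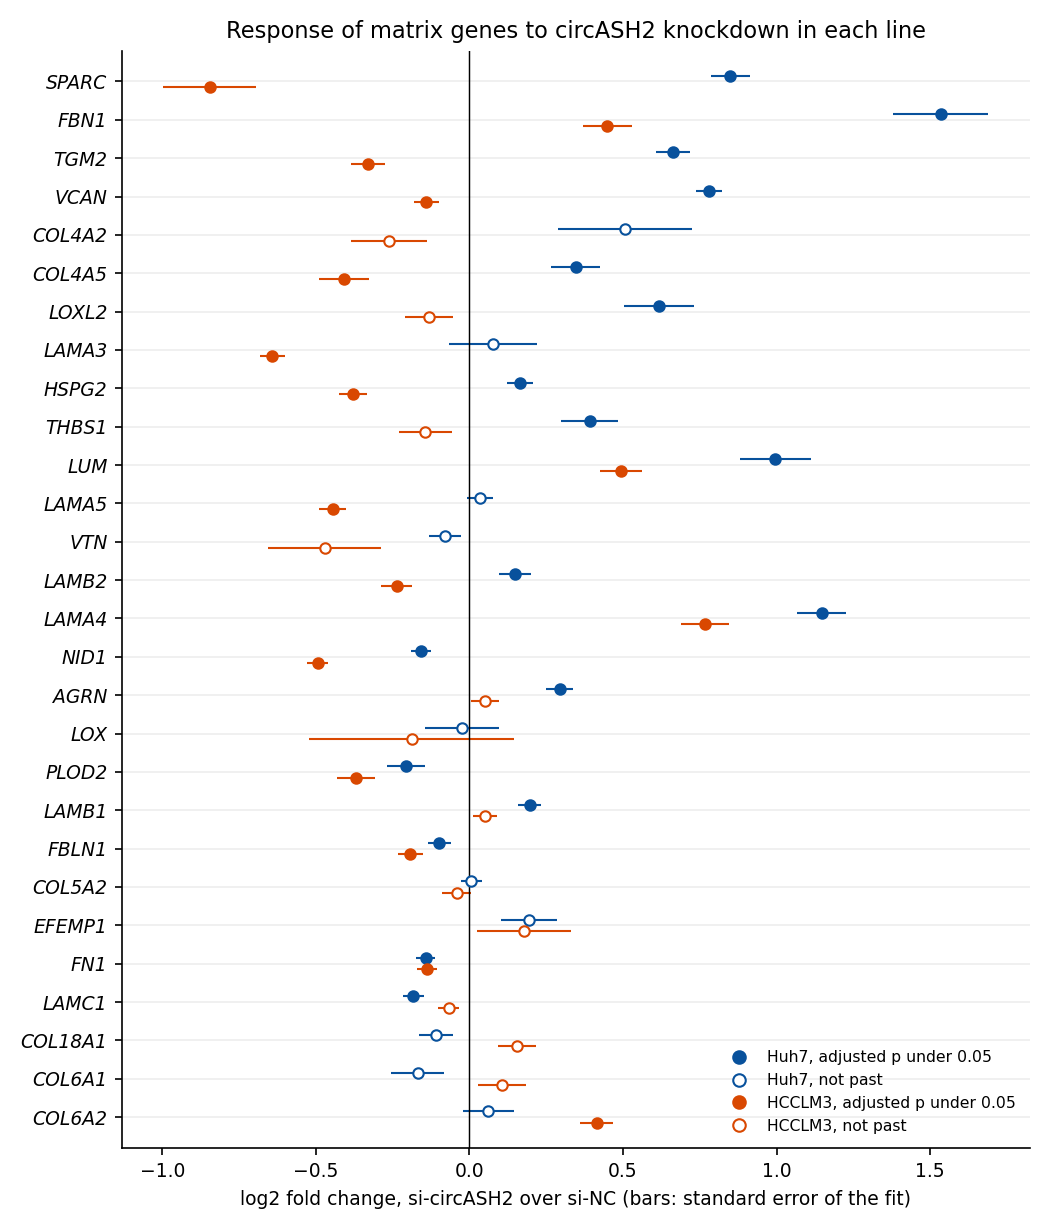
Log2 fold change of si-circASH2 over si-NC (x axis, bars are the standard error of the edgeR fit) in Huh7 (blue) and HCCLM3 (orange) for the 28 genes with a mean of at least 5 CPM in a group and at least 30 counts in every group, ordered by the gap between the lines. Filled points passed an adjusted p of 0.05, and SPARC at the top lies at 0.85 in Huh7 and -0.85 in HCCLM3.

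Collagen IV forms the network of basement membranes, and its chains differed from each other in both lines. COL4A5, the α5(IV) chain that is altered in Alport syndrome, was at 16.4, 17.7 and 17.3 CPM in Huh7 si-NC and at 22.5, 21.1 and 21.7 CPM in Huh7 si-circASH2. In HCCLM3 COL4A5 was at 20.8, 21.3 and 17.8 CPM with si-NC and at 15.6, 16.0 and 13.5 CPM with si-circASH2. Neither line's groups overlapped, and the order of the groups was opposite. COL4A5 rose by 0.35 ± 0.08 in Huh7 (adjusted p = 0.00157 by edgeR) and fell by 0.41 ± 0.08 in HCCLM3 (adjusted p = 0.000412 by edgeR), and the effects differed by -0.75 ± 0.11 (adjusted p = 3.01e-05 by edgeR).

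COL4A1 and COL4A2, the chains that make up the most widespread collagen IV, are transcribed away from each other from a shared promoter region on chromosome 13. Their levels did not go together in HCCLM3: COL4A1 had no count in any of the 6 HCCLM3 libraries, while COL4A2 was at 14.8, 12.8 and 12.6 CPM with si-NC and at 11.4, 11.9 and 10.1 CPM with si-circASH2. In Huh7 COL4A2 was at 0.820, 1.0 and 0.623 CPM with si-NC and at 0.982, 1.09 and 1.40 CPM with si-circASH2. COL4A2 passed the test in neither line (0.51 ± 0.22, adjusted p = 0.0813 by edgeR, and -0.26 ± 0.12, adjusted p = 0.115 by edgeR), and its groups overlapped in Huh7. The difference between the lines passed at -0.77 ± 0.25 (adjusted p = 0.0303 by edgeR). That call was lost without Huh7 si-NC replicate 1 (0.0558) or 3 (0.105), Huh7 si-circASH2 replicate 3 (0.125), HCCLM3 si-NC replicate 1 (0.0689) or HCCLM3 si-circASH2 replicate 3 (0.0604), and with limma on FPKM (0.0862 to 0.0917). COL4A1 had 31 counts over the Huh7 si-NC libraries and 71 over the si-circASH2 libraries, a difference of 1.2 ± 0.47 that did not pass (adjusted p = 0.0597 by edgeR).

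The start regions of the pair are shown because the annotated windows overlap, while COL4A1 had no reads and COL4A2 had reads in the HCCLM3 libraries. The start site from which the COL4A2 reads came was not tested, since gene counts do not show it. Each window runs from 250 bases before to 50 bases after the start (RefSeq, GRCh38.p14), COL4A1 at chr13:110307108-110307407 on the minus strand and COL4A2 at chr13:110307034-110307333 on the plus strand. Capitals mark GGGCGG and its reverse complement, and likewise CCAAT.
COL4A1: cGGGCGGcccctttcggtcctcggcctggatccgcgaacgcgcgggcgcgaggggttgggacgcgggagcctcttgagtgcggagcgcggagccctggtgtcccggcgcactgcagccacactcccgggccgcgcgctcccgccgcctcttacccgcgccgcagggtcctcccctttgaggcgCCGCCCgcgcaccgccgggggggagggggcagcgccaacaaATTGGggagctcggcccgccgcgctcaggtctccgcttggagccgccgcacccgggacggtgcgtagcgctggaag
COL4A2: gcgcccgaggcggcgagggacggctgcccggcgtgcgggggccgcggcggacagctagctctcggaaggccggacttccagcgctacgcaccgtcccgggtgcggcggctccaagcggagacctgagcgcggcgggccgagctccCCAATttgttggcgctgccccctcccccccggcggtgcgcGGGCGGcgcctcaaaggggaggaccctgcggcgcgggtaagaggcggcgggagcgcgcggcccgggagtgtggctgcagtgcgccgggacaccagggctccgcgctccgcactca
The windows share 226 bases, chr13:110307108-110307333, and the start sites lie 127 bases apart. GENCODE 29 gives the genes a short overlap near this place, since COL4A2 is listed from 110305812 and COL4A1 up to 110307233.

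Laminins are trimers of an α, a β and a γ chain, and the chains present differed by line. Among the α chains LAMA4, common in the basement membranes of vessels and muscle, was at 16.1, 17.2 and 19.5 CPM in Huh7 si-NC and at 38.7, 37.6 and 40.7 CPM in Huh7 si-circASH2. In HCCLM3 LAMA4 was at 24.2, 30.3 and 24.9 CPM and then at 45.6, 47.1 and 42.3 CPM. In both lines the highest si-NC library was below the lowest si-circASH2 library. LAMA4 rose by 1.15 ± 0.08 in Huh7 (2.21-fold, adjusted p = 3.64e-10 by edgeR) and by 0.77 ± 0.08 in HCCLM3 (1.70-fold, adjusted p = 8.95e-08 by edgeR). The difference between the lines was -0.38 ± 0.11 (adjusted p = 0.0183 by edgeR), a call lost without Huh7 si-NC replicate 1 (0.0587) or 2 (0.0501), Huh7 si-circASH2 replicate 3 (0.0530) or HCCLM3 si-NC replicate 2 (0.0695), and with limma on FPKM (0.0609 to 0.109).

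LAMA3, an α chain of epithelial laminins, was low in Huh7 and abundant in HCCLM3. Its levels in HCCLM3 were 315, 331 and 304 CPM with si-NC and 203, 211 and 196 CPM with si-circASH2, and in Huh7 they were 1.44, 1.34 and 1.34 CPM and then 1.25, 1.62 and 1.47 CPM. LAMA3 fell by 0.64 ± 0.04 in HCCLM3 (adjusted p = 2.8e-11 by edgeR), with no overlap, and gave 0.08 ± 0.14 in Huh7 (adjusted p = 0.812 by edgeR). LAMB3, a β chain that pairs with LAMA3, was at 203, 209 and 198 CPM in HCCLM3 si-NC and at 181, 187 and 177 CPM in HCCLM3 si-circASH2, against 0.133 to 0.464 CPM in the 6 Huh7 libraries. It fell by 0.16 ± 0.05 in HCCLM3 (adjusted p = 0.0148 by edgeR), a call lost without HCCLM3 si-NC replicate 2 (0.0755) or si-circASH2 replicate 3 (0.0627), and with limma on log2(FPKM + 0.1) (0.476). The HCCLM3 groups of LAMB3 did not overlap.

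LAMA5, the α chain of laminins found in most adult epithelia, was at 162, 159 and 172 CPM in Huh7 si-NC and at 177, 163 and 165 CPM in Huh7 si-circASH2, and these groups overlapped. In HCCLM3 LAMA5 was at 103, 100 and 103 CPM and then at 75.5, 77.6 and 71.9 CPM, with no overlap. It fell by 0.45 ± 0.04 in HCCLM3 (adjusted p = 3.73e-08 by edgeR) and gave 0.03 ± 0.04 in Huh7 (adjusted p = 0.600 by edgeR), and the effects differed by -0.48 ± 0.06 (adjusted p = 3.02e-06 by edgeR). LAMA1, an α chain mostly of embryonic basement membranes, had no count in any Huh7 library and 68 counts over the HCCLM3 si-NC libraries, and passed in neither knockdown.

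The β and γ chains with a broad distribution changed by less. LAMB1 was at 317, 324 and 308 CPM in Huh7 si-NC and at 357, 374 and 356 CPM in Huh7 si-circASH2, a rise of 0.20 ± 0.04 (adjusted p = 0.000321 by edgeR). In HCCLM3 LAMB1 stood at 99.4, 108 and 100 CPM and at 102, 110 and 107 CPM, and did not pass. LAMB2, the β chain of the kidney filter and the neuromuscular junction, was at 46.6, 43.1 and 46.7 CPM and then at 54.0, 48.0 and 49.3 CPM in Huh7. Its HCCLM3 levels were 59.9, 58.5 and 59.4 CPM and then 49.6, 49.4 and 51.9 CPM. LAMB2 was thus higher after knockdown in Huh7 (0.15 ± 0.05, adjusted p = 0.0291 by edgeR) and lower in HCCLM3 (-0.24 ± 0.05, adjusted p = 0.000843 by edgeR), without overlap in either, and the effects differed by -0.39 ± 0.07 (adjusted p = 0.000362 by edgeR). The Huh7 call of LAMB2 was lost without si-circASH2 replicate 1 (0.173) or si-NC replicate 2 (0.157) of Huh7, without si-circASH2 replicate 2 of HCCLM3 (0.0529), with no filter on low counts (0.0529), when Huh7 was fitted alone (0.0752), and with limma on FPKM (0.107 to 0.109).

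LAMC1, the γ chain that most laminins share, was at 271, 261 and 265 CPM in Huh7 si-NC and at 229, 237 and 237 CPM in Huh7 si-circASH2, a fall of 0.18 ± 0.03 (adjusted p = 0.000184 by edgeR). In HCCLM3 it was at 258, 264 and 257 CPM and then at 247, 256 and 240 CPM (-0.07 ± 0.03, adjusted p = 0.142 by edgeR). The Huh7 change passed and the HCCLM3 change did not, while the difference between the lines was not past the threshold (0.12 ± 0.05, adjusted p = 0.0949 by edgeR). Over the 8 laminin chains 3 rose, 1 fell and 4 did not pass in Huh7, and 1 rose, 4 fell and 3 did not pass in HCCLM3, which is 50% and 62.5% called beside 31.4% and 30.6% of all features.

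**Figure D2:**
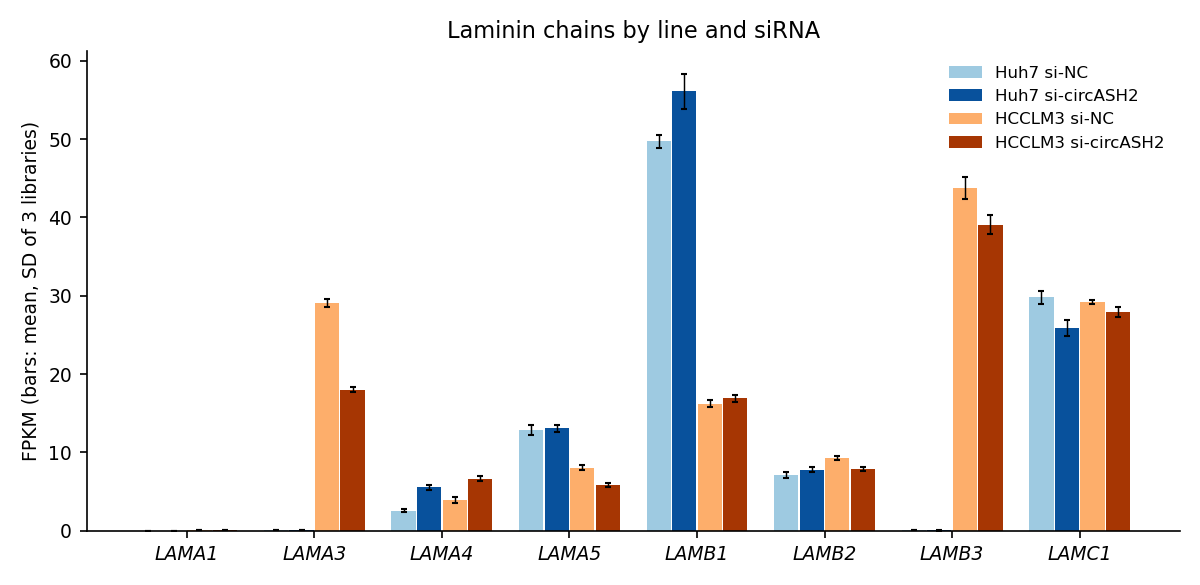
Deposited FPKM (fragments per kilobase of transcript and sequencing depth) of the 8 laminin chains in the 4 groups, as the mean of 3 libraries with the SD as bars. LAMB1 is the highest chain in Huh7 and LAMB3 in HCCLM3, and LAMA3 falls from 29.1 to 18.0 FPKM between the HCCLM3 groups.

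Of the proteins that join laminin to collagen IV, nidogen 1 fell in both lines. NID1 was at 951, 979 and 960 CPM in Huh7 si-NC and at 860, 880 and 851 CPM in Huh7 si-circASH2. In HCCLM3 it was at 206, 212 and 195 CPM and then at 146, 148 and 142 CPM. The groups did not overlap in either line, and NID1 fell by 0.16 ± 0.03 in Huh7 (adjusted p = 0.000628 by edgeR) and by 0.49 ± 0.03 in HCCLM3 (adjusted p = 1.15e-10 by edgeR), a difference of -0.34 ± 0.05 between the lines (adjusted p = 1.28e-05 by edgeR). NID2, its homologue, was at 3.64 ± 0.303 CPM (SD, n = 3) in Huh7 si-NC, had 11 counts in each HCCLM3 group and passed in neither line.

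HSPG2, which encodes perlecan, was at 196, 206 and 202 CPM in Huh7 si-NC and at 234, 229 and 216 CPM in Huh7 si-circASH2. In HCCLM3 its levels were 117, 118 and 122 CPM and then 87.3, 98.3 and 89.1 CPM. The groups stood apart in opposite order, with a rise of 0.17 ± 0.04 in Huh7 (adjusted p = 0.00435 by edgeR), a fall in HCCLM3 (-0.38 ± 0.04, adjusted p = 5.02e-07 by edgeR) and a difference of -0.54 ± 0.06 (adjusted p = 6.47e-07 by edgeR). AGRN, which encodes agrin, a heparan sulphate proteoglycan that clusters receptors at the neuromuscular junction, was at 291, 287 and 312 CPM and then at 388, 343 and 360 CPM in Huh7. In HCCLM3 AGRN was at 236, 216 and 224 CPM and then at 227, 241 and 233 CPM, and these groups overlapped. Agrin transcripts rose by 0.29 ± 0.04 in Huh7 (adjusted p = 1.88e-05 by edgeR) and did not pass in HCCLM3 (0.05 ± 0.04, adjusted p = 0.433 by edgeR). The difference between the lines was -0.24 ± 0.06 (adjusted p = 0.00763 by edgeR), and it did not pass with limma on FPKM (0.0568 to 0.0723).

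Among the 5 fibrillar collagen chains of the 42 genes, COL1A2 and COL3A1 rose in Huh7. COL1A2, the α2 chain of collagen I, was at 21.8, 24.5 and 27.1 CPM in Huh7 si-NC and at 38.1, 39.4 and 39.1 CPM in Huh7 si-circASH2, a rise of 0.67 ± 0.11 (adjusted p = 0.000124 by edgeR) with no overlap. In HCCLM3 COL1A2 had no count with si-NC and 5 counts, all in 1 library, with si-circASH2. COL1A1, which encodes the α1 chain of the same trimer, was at 4.21 ± 0.333 CPM in Huh7 si-NC and 3.95 ± 0.714 CPM in Huh7 si-circASH2 (SD, n = 3) and did not pass. Per length, the α2 chain of collagen I was thus the higher of the pair in Huh7 si-NC, at 4.0 ± 0.440 FPKM against 0.665 ± 0.138 FPKM for COL1A1 (SD, n = 3).

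COL3A1, a fibrillar collagen of distensible tissues, rested on few reads, with 7, 11 and 7 counts in Huh7 si-NC and 85 counts over the si-circASH2 libraries at 1.56, 0.298 and 1.0 CPM. The groups overlapped although the rise passed (1.77 ± 0.53, adjusted p = 0.0133 by edgeR), and the call was lost without Huh7 si-NC replicate 1 (0.0534) or si-circASH2 replicate 1 (0.137), and with limma on log2(FPKM + 1) with no filter (0.0899). COL5A2, a collagen V chain that helps to set the width of collagen fibrils, had the highest FPKM of these 5 chains in every group. It was at 354 ± 6.87 CPM in Huh7 si-NC and 356 ± 4.25 CPM in Huh7 si-circASH2, and at 18.4 ± 0.290 and 17.9 ± 0.828 CPM in HCCLM3 (SD, n = 3). Neither change passed, with 0.01 ± 0.03 in Huh7 (adjusted p = 0.944 by edgeR) and -0.04 ± 0.05 in HCCLM3 (adjusted p = 0.595 by edgeR). Its partner chain COL5A1 had 3 counts in 1 of the 12 libraries and none in the others.

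COL12A1, a collagen that decorates fibrils, was at 4.33, 5.34 and 4.30 CPM in Huh7 si-NC and at 9.14, 9.11 and 6.64 CPM in Huh7 si-circASH2. Its HCCLM3 counts were 2 over the si-NC libraries and 6 over the si-circASH2 libraries, each in 1 library. The Huh7 rise of COL12A1 (0.83 ± 0.26, adjusted p = 0.0182 by edgeR) had no overlap between groups, and it was lost without Huh7 si-NC replicate 1 (0.0731) or 3 (0.0661) or si-circASH2 replicate 1 (0.0846) or 2 (0.0839), and with limma on log2(FPKM + 0.1) (0.0646). COL7A1, which forms anchoring fibrils below the epidermis, stayed between 0.919 and 2.20 CPM in all 12 libraries and passed in neither knockdown.

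Collagen VI, which forms beaded filaments near basement membranes, rose in HCCLM3 in 2 of its 3 chains. COL6A2 was at 167, 174 and 179 CPM in HCCLM3 si-NC and at 232, 237 and 224 CPM in HCCLM3 si-circASH2, against 11.5, 10.1 and 13.6 CPM and then 13, 12.5 and 11.4 CPM in Huh7. COL6A3 was at 35.5, 41.1 and 37.1 CPM and then at 69.1, 67.8 and 62.2 CPM in HCCLM3, against 0.10 to 0.267 CPM in the 6 Huh7 libraries. In HCCLM3 the groups did not overlap for either gene. COL6A2 rose there by 0.41 ± 0.05 (adjusted p = 6.17e-06 by edgeR) and COL6A3 by 0.81 ± 0.06 (adjusted p = 7.96e-10 by edgeR). For COL6A2 the effect differed between the lines by 0.35 ± 0.10 (adjusted p = 0.0138 by edgeR), a call lost without Huh7 si-NC replicate 3 (0.0634) or Huh7 si-circASH2 replicate 3 (0.0510), and with limma on log2(FPKM + 0.1) (0.0804).

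COL6A1, the third chain, was at 536 ± 10.7 and 577 ± 5.95 CPM in HCCLM3 (SD, n = 3; 0.11 ± 0.08, adjusted p = 0.368 by edgeR), and passed there when HCCLM3 was fitted alone (0.00413), without Huh7 si-circASH2 replicate 1 (0.00925) and with limma on FPKM (0.0184 to 0.0308). In Huh7 it was at 63.1, 65.5 and 64.5 CPM and then at 68.2, 51.6 and 52.1 CPM, and 1 library decided that comparison. Without Huh7 si-circASH2 replicate 1 the change in COL6A1 was -0.31 (adjusted p = 1.92e-06 by edgeR) in place of -0.17 ± 0.09 (adjusted p = 0.184 by edgeR). The deposited FPKM of COL6A1 did not show that gap, at 13.4 ± 0.171 in Huh7 si-NC and 14.0 ± 0.177 in Huh7 si-circASH2 (SD, n = 3). COL18A1, a basement membrane collagen that yields endostatin, was at 247, 266 and 276 CPM and then at 263, 233 and 237 CPM in Huh7. In HCCLM3 COL18A1 was at 61.2, 54.1 and 58.7 CPM and then at 61.8, 62.7 and 69.3 CPM. It passed in neither line, and the difference between the lines (0.26 ± 0.08, adjusted p = 0.0282 by edgeR) was lost in 7 of the 12 fits that leave out 1 library (0.0501 to 0.0836) and with limma on FPKM (0.136 to 0.183).

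Fibrillin 1, the backbone of elastic microfibrils, gave the highest rise among the genes above 5 CPM in Huh7 si-circASH2. FBN1 was at 1.97, 2.24 and 1.34 CPM in Huh7 si-NC and at 4.40, 6.13 and 5.54 CPM in Huh7 si-circASH2. In HCCLM3 it was at 41.7, 44.7 and 45.2 CPM and then at 63.6, 61.0 and 55.0 CPM. All si-circASH2 libraries were above all si-NC libraries of their line, with rises of 1.53 ± 0.16 (2.90-fold, adjusted p = 1.37e-07 by edgeR) and 0.45 ± 0.08 (1.37-fold, adjusted p = 0.000171 by edgeR). The difference between the lines was -1.09 ± 0.18 (adjusted p = 0.000118 by edgeR) and turned to 0.02 with limma on log2(FPKM + 1) (limma adjusted p = 0.889), a scale that compresses low values, FBN1 being at 0.148 FPKM in Huh7 si-NC. FBN2, its homologue, had 7 to 15 counts in each group and was not tested.

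FBLN1, a fibulin of basement membranes and elastic fibres, was at 448, 449 and 452 CPM in Huh7 si-NC and at 433, 407 and 421 CPM in Huh7 si-circASH2. Its HCCLM3 levels were 66.7, 63.1 and 70.0 CPM and then 58.4, 59.6 and 57.0 CPM. The groups did not overlap in either line, with a fall of 0.10 ± 0.04 in Huh7 (adjusted p = 0.0437 by edgeR) and of 0.19 ± 0.04 in HCCLM3 (adjusted p = 0.000730 by edgeR). The Huh7 call of FBLN1 was lost in 8 of 12 fits that leave out 1 library (0.0537 to 0.168), with upper quartile scaling (0.0955) and with limma on FPKM (0.128 to 0.157). EFEMP1, a fibulin of connective tissue, was at 46.0 ± 3.44 and 52.6 ± 1.33 CPM in Huh7 and at 4.21 ± 1.10 and 4.74 ± 0.721 CPM in HCCLM3 (SD, n = 3) and passed in neither line.

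Fibronectin, the adhesive glycoprotein that integrins assemble into fibrils, had the highest level of the 42 genes in every group. FN1 was at 6744, 6670 and 7108 CPM in Huh7 si-NC and at 6155, 6281 and 6159 CPM in Huh7 si-circASH2. In HCCLM3 FN1 was at 2864, 2922 and 3095 CPM and then at 2746, 2633 and 2698 CPM. The groups did not overlap, and the falls were -0.14 ± 0.03 in Huh7 (adjusted p = 0.00129 by edgeR) and -0.14 ± 0.03 in HCCLM3 (adjusted p = 0.00201 by edgeR), a difference of 0.01 ± 0.05 that did not pass. The HCCLM3 call of FN1 was lost with limma on log2(FPKM + 1) with no filter on low values (0.0552). VTN, which encodes vitronectin, a plasma protein of hepatocytes that binds integrins, was at 506 ± 17.5 and 479 ± 13.5 CPM in Huh7 and at 1.79 ± 0.479 and 1.30 ± 0.305 CPM in HCCLM3 (SD, n = 3), and passed in neither line.

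SPARC, a calcium-binding matricellular protein that binds collagen, rose in Huh7 and fell in HCCLM3. It was at 28.2, 26.8 and 27.5 CPM in Huh7 si-NC and at 49.1, 50.6 and 49.0 CPM in Huh7 si-circASH2. In HCCLM3, where SPARC was low, it was at 2.09, 1.93 and 2.32 CPM and then at 1.39, 0.962 and 1.18 CPM, from 188 and 105 counts in all. No groups overlapped. SPARC rose by 0.85 ± 0.06 in Huh7 (1.80-fold, adjusted p = 4.77e-10 by edgeR) and fell by 0.85 ± 0.15 in HCCLM3 (1.80-fold lower, adjusted p = 0.000122 by edgeR), and the effects differed by -1.70 ± 0.16 (adjusted p = 6.76e-08 by edgeR).

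THBS1, a matricellular protein that can activate latent TGF-beta, was at 48.2, 49.4 and 43.1 CPM and then at 55.4, 72.1 and 57.2 CPM in Huh7. In HCCLM3 THBS1 was at 129, 122 and 132 CPM and then at 113, 112 and 121 CPM. Its rise of 0.39 ± 0.09 in Huh7 passed (adjusted p = 0.00701 by edgeR), -0.14 ± 0.09 in HCCLM3 did not (adjusted p = 0.250 by edgeR), and the effects differed by -0.53 ± 0.13 (adjusted p = 0.0107 by edgeR). THBS1 was called lower in HCCLM3 when that line was fitted alone (0.00705) or without Huh7 si-circASH2 replicate 2 (0.0239), which would add it to the 7 genes with opposite calls. TNC, which encodes tenascin C, a glycoprotein of tumour and wound matrix, rested on few reads, with group means of 0.242 and 0.822 CPM in Huh7 and 0.623 and 1.32 CPM in HCCLM3. TNC rose in both lines without overlap (1.75 ± 0.46, adjusted p = 0.00483 by edgeR, and 1.08 ± 0.38, adjusted p = 0.0347 by edgeR). The TNC calls were lost without Huh7 si-circASH2 replicate 2 in Huh7 (0.0504), and in HCCLM3 without HCCLM3 si-NC replicate 2 (0.0594) or 3 (0.174) or si-circASH2 replicate 1 (0.0771) or 2 (0.145), and in each line with limma on log2(FPKM + 1) with no filter (0.105 and 0.0572).

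All 3 matrix proteoglycans rose in Huh7. VCAN, which encodes versican, a large proteoglycan that binds hyaluronan, was at 65.8, 64.8 and 69.6 CPM in Huh7 si-NC and at 111, 115 and 117 CPM in Huh7 si-circASH2. In HCCLM3 VCAN was at 300, 300 and 274 CPM and then at 272, 263 and 257 CPM. The lowest si-NC library lay just above the highest si-circASH2 library in HCCLM3, while in Huh7 the groups were far apart. Versican transcripts rose by 0.78 ± 0.04 in Huh7 (1.72-fold, adjusted p = 2.99e-12 by edgeR) and fell by 0.14 ± 0.04 in HCCLM3 (adjusted p = 0.0101 by edgeR), and the effects differed by -0.92 ± 0.06 (adjusted p = 1.3e-10 by edgeR). The HCCLM3 call of VCAN was lost without HCCLM3 si-NC replicate 1 (0.0557) or 2 (0.0624) and with limma on FPKM (0.0608 to 0.0851).

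The start regions of SPARC and VCAN are shown because these genes had opposite effects in the lines and lie on the same chromosome, SPARC at chr5:151686866-151687165 on the minus strand and VCAN at chr5:83471494-83471793 on the plus strand (RefSeq, GRCh38.p14). Capitals mark GGAATG in SPARC and GGGCGG in VCAN, both as their reverse complements.
SPARC: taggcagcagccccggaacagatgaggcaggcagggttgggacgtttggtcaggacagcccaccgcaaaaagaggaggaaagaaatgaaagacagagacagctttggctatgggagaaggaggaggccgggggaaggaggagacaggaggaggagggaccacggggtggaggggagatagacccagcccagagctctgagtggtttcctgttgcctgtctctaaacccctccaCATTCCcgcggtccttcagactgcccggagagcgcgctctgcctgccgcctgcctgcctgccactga
VCAN: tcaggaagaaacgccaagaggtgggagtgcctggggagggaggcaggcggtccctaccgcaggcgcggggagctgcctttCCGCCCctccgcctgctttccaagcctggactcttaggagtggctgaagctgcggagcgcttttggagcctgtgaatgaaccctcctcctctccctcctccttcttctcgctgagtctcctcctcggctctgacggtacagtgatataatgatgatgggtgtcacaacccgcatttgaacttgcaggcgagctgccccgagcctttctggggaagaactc
Of the 5 short sequences searched, each window held 1 kind, and the kinds differed.

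BGN, which encodes biglycan, a small leucine-rich proteoglycan of bone and connective tissue, was at 26.3, 24.9 and 26.1 CPM in Huh7 si-NC and at 39.9, 36.6 and 40.9 CPM in Huh7 si-circASH2, a rise of 0.60 ± 0.09 (adjusted p = 1.08e-05 by edgeR). In HCCLM3 BGN had 5, 2 and 0 counts with si-NC and none with si-circASH2. Although that fall and the difference between the lines passed (adjusted p = 0.0195 and 0.0115 by edgeR), 7 counts against none is at least 2.37-fold lower when set against 3 counts over the group, and both calls were lost without HCCLM3 si-NC replicate 1 (0.152 and 0.117). Leaving out any 1 HCCLM3 si-circASH2 library also ended the call of the fall (0.0518 to 0.0567), as did limma on FPKM (0.125 to 0.781). LUM, which encodes lumican, a small proteoglycan of cornea and skin that regulates collagen fibrils, was at 3.18, 2.27 and 2.95 CPM and then at 5.66, 6.06 and 5.07 CPM in Huh7. In HCCLM3 lumican transcripts were at 33.7, 33.1 and 36.2 CPM and then at 49.1, 46.3 and 49.7 CPM. LUM rose in both lines with no overlap, by 1.0 ± 0.12 (1.99-fold, adjusted p = 4.65e-07 by edgeR) and by 0.49 ± 0.07 (1.41-fold, adjusted p = 6.19e-06 by edgeR). The difference between the lines was -0.50 ± 0.14 (adjusted p = 0.00962 by edgeR), and LUM did not pass in it without Huh7 si-NC replicate 2 (0.0608) or with limma on FPKM (0.0904 to 0.717).

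Among the 4 matrix enzymes, TGM2, a transglutaminase that crosslinks matrix proteins, was at 88.5, 91.0 and 106 CPM in Huh7 si-NC and at 154, 148 and 149 CPM in Huh7 si-circASH2. In HCCLM3 it was at 122, 130 and 124 CPM and then at 97.5, 106 and 95.4 CPM. The groups stood apart in both lines, in opposite order. TGM2 rose by 0.66 ± 0.06 in Huh7 (1.58-fold, adjusted p = 1.23e-08 by edgeR) and fell by 0.33 ± 0.06 in HCCLM3 (adjusted p = 0.000114 by edgeR), a difference of -0.99 ± 0.08 (adjusted p = 1.63e-08 by edgeR). LOXL2, a lysyl oxidase that acts on collagen IV, was at 4.26, 4.84 and 5.97 CPM and then at 8.70, 7.72 and 6.74 CPM in Huh7, and at 44.8, 40.9 and 45.8 CPM and then at 38.2, 41.9 and 39.9 CPM in HCCLM3. It rose by 0.62 ± 0.11 in Huh7 (adjusted p = 0.000182 by edgeR), did not pass in HCCLM3 (-0.13 ± 0.08, adjusted p = 0.221 by edgeR), and differed between the lines by -0.75 ± 0.14 (adjusted p = 0.000327 by edgeR).

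PLOD2, a lysyl hydroxylase that prepares collagen for crosslinks, was at 266, 257 and 308 CPM and then at 225, 237 and 258 CPM in Huh7, where 1 library of each group overlapped. In HCCLM3 PLOD2 was at 274, 275 and 284 CPM and then at 224, 210 and 211 CPM, with no overlap. It fell by 0.21 ± 0.06 in Huh7 (adjusted p = 0.0194 by edgeR) and by 0.37 ± 0.06 in HCCLM3 (adjusted p = 0.000356 by edgeR). The Huh7 call of PLOD2 was lost without Huh7 si-NC replicate 3 (0.0544) or si-circASH2 replicate 1 (0.0857) or 2 (0.0795), when Huh7 was fitted alone (0.0951), and with limma on log2(FPKM + 1) with no filter (0.0664). LOX, the lysyl oxidase that starts collagen and elastin crosslinks, was at 75.4 ± 13.7 and 74.1 ± 3.94 CPM in Huh7 and at 1.93 ± 0.502 and 1.69 ± 0.365 CPM in HCCLM3 (SD, n = 3), and passed in neither line.

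**Figure D3:**
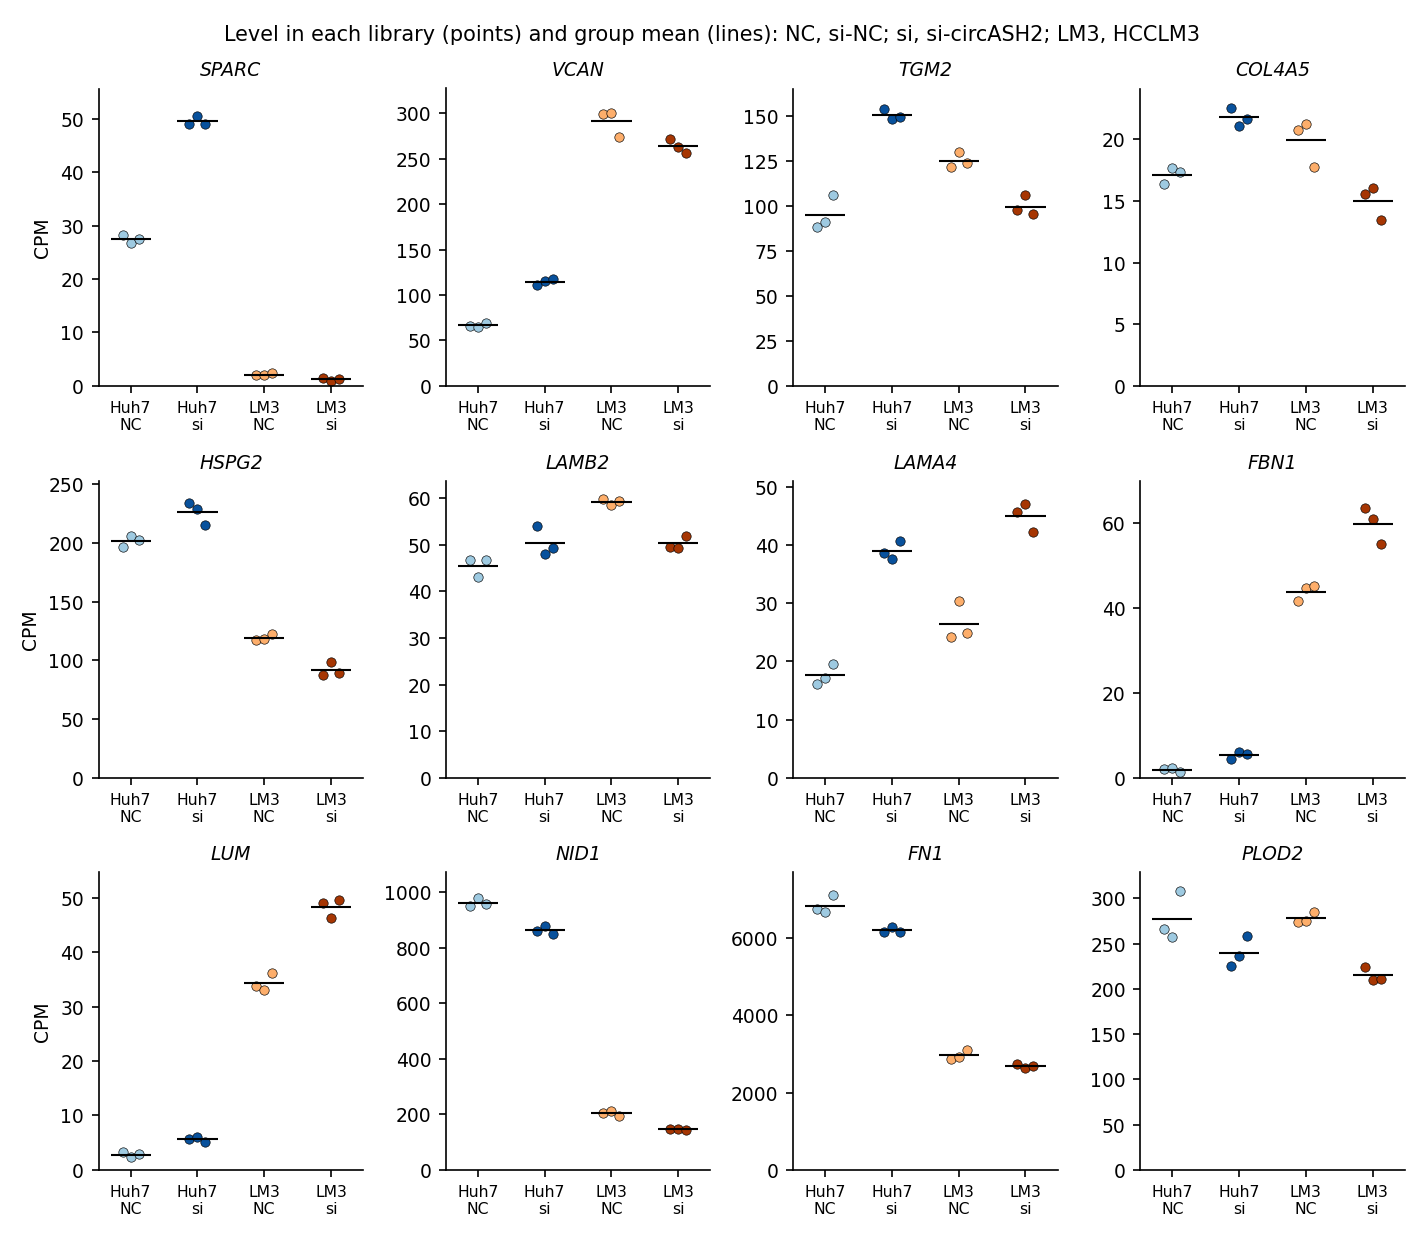
CPM (y axis, from 0) of 12 of the genes in each of the 12 libraries, with 3 points and a line at the mean for each group of Huh7 and HCCLM3 (LM3) given si-NC (NC) or si-circASH2 (si). In the 6 panels from SPARC to LAMB2 the Huh7 mean goes up and the HCCLM3 mean goes down, LAMA4, FBN1 and LUM go up in both lines, and NID1, FN1 and PLOD2 go down in both.

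Beyond the knockdown, the control libraries of the lines differed in which matrix genes they used. Of the 40 tested genes 17 were higher in HCCLM3 si-NC, 19 were lower and 4 did not pass, so 90.0% were called against 85.2% of all features, of which 41.6% were higher and 43.6% lower. The counts are thus near the background of a comparison between a pair of lines. The median size of the change was 3.09 on the log2 scale for these genes and 0.96 over all features. Genes such as COL1A2, COL4A1 and LAMA1 had no count in the si-NC libraries of 1 line and passed the filter through other groups. The contrast of the medians was not tested. With 1 line of each kind, differences between the lines cannot be tied to any property of theirs.

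Levels of different genes are compared by the deposited FPKM, which are scaled to transcript length. The 42 genes together came to 1656 ± 50.4 FPKM in Huh7 si-NC and to 887 ± 21.1 FPKM in HCCLM3 si-NC (SD, n = 3), and FN1 made up 45.2% and 36.6% of these sums. After FN1, Huh7 si-NC was led by VTN at 208 ± 6.58 FPKM, FBLN1 at 154 ± 2.95 FPKM and NID1 at 145 ± 0.949 FPKM (SD, n = 3). HCCLM3 si-NC was led after FN1 by COL6A1 at 112 ± 4.08 FPKM, PLOD2 at 67.0 ± 1.80 FPKM, COL6A2 at 44.8 ± 1.2 FPKM and LAMB3 at 43.8 ± 1.46 FPKM (SD, n = 3).

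The laminin chains present differed between the lines. LAMA3 was 230-fold and LAMB3 757-fold higher in HCCLM3 si-NC than in Huh7 si-NC, LAMA1 was at least 23.3-fold higher against a Huh7 group with no count, and LAMB1 was 3.09-fold lower (adjusted p = 2.49e-21 by edgeR). LAMC1 did not pass, at 266 ± 5.30 CPM in Huh7 and 260 ± 3.60 CPM in HCCLM3 (SD, n = 3; adjusted p = 0.360 by edgeR). All 3 collagen VI chains were higher in HCCLM3, COL6A1 by 8.33-fold, COL6A2 by 14.7-fold and COL6A3 by 278-fold. Collagen IV was split, with COL4A2 16.4-fold higher in HCCLM3 and COL4A1 at least 10.1-fold lower against no count. COL4A1 was low in Huh7 si-NC as well, at 0.342 CPM from 31 counts. Of 4 tested fibrillar collagens 3 were lower in HCCLM3, COL1A1 by 19.3-fold, COL5A2 by 19.2-fold and COL1A2 by at least 724-fold, while COL3A1 did not pass (-0.60 ± 0.68, adjusted p = 0.414 by edgeR). COL1A1 and BGN rested on 19 and 7 counts in HCCLM3 si-NC. The log2 difference of COL1A1 was -5.13 without HCCLM3 si-NC replicate 2 and -3.67 without replicate 3, in place of -4.27, and that of BGN was -9.40 without replicate 1, in place of -8.28. The genes FBN1 (23.7-fold), LUM (12.2-fold), LOXL2 (8.72-fold), VCAN (4.36-fold) and THBS1 (2.72-fold) were higher in HCCLM3, and VTN (280-fold), BGN (311-fold), LOX (39.1-fold), NID2 (28.5-fold), SPARC (13-fold), EFEMP1 (11-fold), FBLN1 (6.75-fold), NID1 (4.71-fold) and FN1 (2.31-fold) were lower. Of the differences in this paragraph, all but those of LAMC1 and COL3A1 had an edgeR adjusted p of 7.17e-05 or less.

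**Figure D4:**
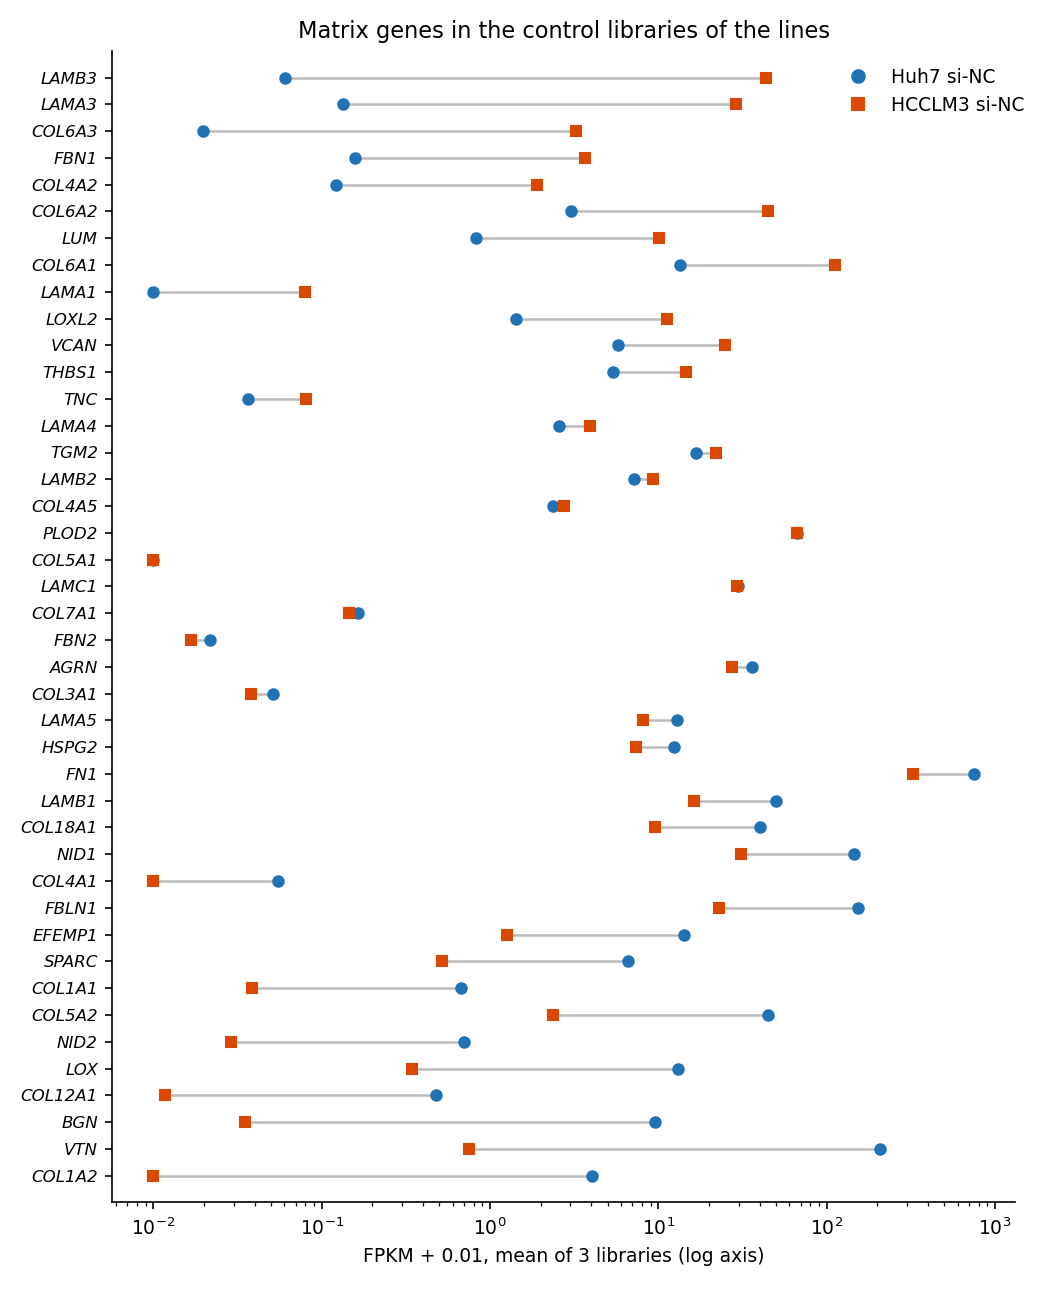
Deposited FPKM plus 0.01 (log axis, mean of 3 libraries) of the 42 genes in Huh7 si-NC (circles) and HCCLM3 si-NC (squares), ordered by the ratio of the lines. LAMB3 at the top is at 43.8 FPKM in HCCLM3 and 0.0503 FPKM in Huh7, and COL1A2 at the bottom is listed at 0 in HCCLM3 and at 4.0 FPKM in Huh7.

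Genes outside the 42 that make or bind matrix were counted in lists, beside the same shares of all features as above. Of 29 tested genes of collagen synthesis and secretion 12 rose and 3 fell in Huh7, and 4 rose and 14 fell in HCCLM3, which is 51.7% and 62.1% called beside 31.4% and 30.6% of all features. Among them SERPINH1, the collagen chaperone HSP47, rose in both lines (0.47 ± 0.04 and 0.31 ± 0.04), as did the peroxiredoxin PRDX4 (0.34 ± 0.04 and 0.44 ± 0.05). BMP1, which trims procollagens and activates lysyl oxidase, rose by 0.53 ± 0.08 in Huh7 and fell by 0.25 ± 0.07 in HCCLM3. P3H4, a cofactor of collagen lysine hydroxylation, fell in HCCLM3 (-0.59 ± 0.06). Of the 18 tested among 34 other collagen and laminin chains, 7 rose and 11 did not pass in Huh7, and 2 rose and 4 fell in HCCLM3 (38.9% and 33.3% called). COL17A1, a collagen of hemidesmosomes, rose in both lines (2.49 ± 0.61 from 0.0668 CPM in Huh7, and 1.17 ± 0.16 in HCCLM3), COL14A1 rose in Huh7 (0.41 ± 0.07), and COL27A1 rose in Huh7 (0.19 ± 0.05) and fell in HCCLM3 (-0.20 ± 0.05).

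Of 51 other tested glycoproteins and proteoglycans 12 rose and 1 fell in Huh7, and 9 rose and 6 fell in HCCLM3, and the effects differed between the lines for 10, all with a lower effect in HCCLM3. These shares, 25.5%, 29.4% and 19.6%, are at or below those of all features (31.4%, 30.6% and 20.9%). In Huh7 the matricellular genes CYR61 (1.79 ± 0.07), SPP1, which encodes osteopontin (1.23 ± 0.05), and CTGF (0.57 ± 0.05) rose. In HCCLM3 tenascin X (TNXB, 0.76 ± 0.08) and netrin 4 (NTN4, 0.38 ± 0.05) rose and serglycin (SRGN) fell by 0.56 ± 0.07. Of 7 other tested lysyl oxidases, transglutaminases and related enzymes, LOXL1 rose in Huh7 (0.79 ± 0.26), and QSOX1, a sulfhydryl oxidase needed for laminin assembly, fell in both lines (-0.14 ± 0.05 and -0.50 ± 0.05).

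Of 28 tested matrix receptors 10 rose and 3 fell in Huh7, 5 rose and 7 fell in HCCLM3, and the effect was lower in HCCLM3 for 11 and higher for 1 (46.4%, 42.9% and 42.9% called). CD44, a hyaluronan receptor, rose in Huh7 (6.61 CPM and then 13.8 CPM, 1.06 ± 0.07) and fell in HCCLM3 (324 CPM and then 289 CPM, -0.17 ± 0.04). The integrin subunits ITGAV (0.33 ± 0.04, then -0.40 ± 0.04), ITGB5 (0.17 ± 0.04, then -0.47 ± 0.04) and ITGA2 (0.27 ± 0.06, then -0.99 ± 0.05) each rose in Huh7 and fell in HCCLM3. ITGB1, the common β subunit, fell in HCCLM3 (-0.42 ± 0.03), and ITGA1, a collagen receptor subunit, fell in Huh7 (-0.34 ± 0.05). Of 15 tested TGF-beta ligands, receptors and SMADs 4 rose and 2 fell in Huh7, and 2 rose and 2 fell in HCCLM3 (40% and 26.7% called). The ligand TGFB1 rose in both lines (0.70 ± 0.05 and 0.22 ± 0.05), TGFB2 (0.79 ± 0.08) and LTBP1, a latency protein (0.63 ± 0.05), rose in Huh7, SMAD2 fell in both (-0.17 ± 0.04 each) and SMAD3 fell in HCCLM3 (-0.25 ± 0.04).

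Sequence features were counted over the 42 genes whatever their calls. The sequences searched in 3′ UTRs, however, were chosen with earlier results of these data known. A RefSeq start window of 300 bases was matched for 31 of 42 genes. GGGCGG on either strand was in 80.6% of these and in 44.6% of all 27305 windows, CCAAT in 35.5% and 35.7%, TATAAA in 6.45% and 12%, TGANTCA in 3.23% and 7.76%, and GGAATG in 16.1% and 14%. None of these 5 sequences contains another. The 27305 windows were taken once per symbol and were not matched to the 42 genes in gene type or in share of G and C. A match is a description of letters, not evidence of a bound site. The sequences TTATACC and TATACCA, which earlier results of these data tied to genes lower in both knockdowns, were looked for on the transcript strand. The longest 3′ UTR of each gene in GENCODE 29 was searched. At least 1 of them was in 9 of 42 genes (21.4%) and in 12.2% of 18424 genes, and TCGGAGAA was in none of the 42 and in 0.581% of 18424. Of the 9 genes NID1 fell in both lines, LAMC1 fell in Huh7, COL12A1 and THBS1 rose in Huh7, VCAN rose in Huh7 and fell in HCCLM3, COL1A1, COL5A2 and COL4A2 passed in neither knockdown, and FBN2 was not tested. The sites of NID1 (chr1:235977055-235977061), COL12A1 (chr6:75084563-75084569) and VCAN (chr5:83580717-83580723) in GRCh38 are shown with 11 flanking bases on each side, since they are alike in letters while the calls of their genes differ, and capitals mark the sequence searched.
NID1: tgtgccttaaaTTATACCaaagattacta
COL12A1: cacactaacatTTATACCaaattgcagat
VCAN site: atttcctaatgTATACCAgcctactgtac
The share of genes with a site is a count over 42 names and was not tested. A longer 3′ UTR has more places for a match, and length was not taken into account.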

How the data were processed

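The data are 12 RNA sequencing libraries, put by their labels into 4 groups of 3. Per the labels' protocols, libraries were made from total RNA with an mRNA kit. The deposited gene counts were analysed as the authors gave them, and the deposited FPKM were used for levels between genes and for alternatives. For the aligner, counter and annotation nothing is given in the sources used here, and the submitters' processing notes list hg38, GRCm38 and mm10 with no role.

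Counts were filtered with filterByExpr (minimum count 10), scaled with TMM factors and fitted with edgeR 4.0.16 (R 4.3.3, robust quasi-likelihood, 1 coefficient per group, 8 residual degrees of freedom), with Benjamini-Hochberg adjustment over 16946 features and a threshold of 0.05. The fit was tested on simulated data. Alternatives were other scalings, no filter, DESeq2 1.42.0, each line alone, a replicate block, limma 3.58.1 on log2(FPKM + 1) and log2(FPKM + 0.1) with a mean of at least 0.1 FPKM or no filter, and leaving out each library.

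Every library value was given for genes called in a knockdown or in the difference between lines with a group mean of at least 5 CPM. From the further lists up to 3 genes per knockdown with the smallest p and at least 1 CPM were named. Of the genes this rule names, 1 is not reported here. The 42 genes, the lists and the rules were chosen with earlier results of these data known.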

Additional observations from a re-analysis of the deposited data

Results flagged for a closer look

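The results below stand out because the knockdown effect differed between the lines in a test of that difference (HCCLM3 minus Huh7, log2, edgeR adjusted p under 0.05). Genes that rose in Huh7 and fell in HCCLM3 gave -1.70 for SPARC, -0.99 for TGM2, -0.92 for VCAN, -0.75 for COL4A5, -0.54 for HSPG2 and -0.39 for LAMB2. BGN gave a fitted -4.91 that depends on 7 counts in HCCLM3 and is no measure of size. Genes that rose in both lines, by less in HCCLM3, gave -1.09 for FBN1, -0.50 for LUM and -0.38 for LAMA4. NID1, which fell in both lines, gave -0.34. Genes called in Huh7 alone gave -0.75 for LOXL2, -0.53 for THBS1 and -0.24 for AGRN. Genes called in HCCLM3 alone gave -0.72 for LAMA3, -0.48 for LAMA5 and 0.35 for COL6A2. COL4A2 at -0.77 and COL18A1 at 0.26 passed in neither line. The difference was no longer called under some alternatives for COL4A2, COL18A1, COL6A2, LAMA4, LUM, AGRN and BGN, and that of FBN1 changed sign. The rise of LAMB2 in Huh7 and the falls of VCAN and BGN in HCCLM3 were also lost under some alternatives.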

How the results depend on the processing

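Counts of called genes stayed within 1.5 times the main count under all alternatives run. Leaving out 1 library gave 19 to 24 called genes in Huh7 (23 with all libraries), 18 to 22 in HCCLM3 (20), 15 to 20 for the difference between the lines (19) and 34 to 36 between the controls (36). The genes above zero in the difference between the lines went from 2 to between 0 and 3. The other alternatives gave 18 to 23, 17 to 24, 14 to 21 and 33 to 36. Limma on log2(FPKM + 1) turned the FBN1 difference between the lines to 0.023, with and without a filter on low values (limma adjusted p = 0.889 and 0.898).

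The labels do not state whether equal replicate numbers pair the libraries, and correlations as small as those below cannot decide it. The deviations of same-numbered libraries from their group means correlated between -0.0476 and 0.0371 in the knockdown pairs, across genes, and each HCCLM3 library correlated best with its own number while of the Huh7 libraries this held for replicate 3 alone. With a replicate block 23, 22, 21 and 34 genes were called. Of 96 called values that could be fitted with the block 1 lost its call (FBLN1 in Huh7, 0.0563), and 5 values gained one, among them THBS1 in HCCLM3 (0.0345).

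Over 1176 refits of called values that leave out 1 library 57 calls were lost and no sign changed. Calls on genes with few counts (COL3A1, TNC, BGN in HCCLM3) and on changes of small size (FBLN1, LAMB2 and PLOD2 in Huh7) were among those lost. Genes that gained a call under at least 1 alternative were COL4A1, COL4A2, COL6A1, COL18A1 and EFEMP1 in Huh7. In HCCLM3 they were COL1A2, COL3A1, COL4A2, COL6A1, COL18A1, THBS1 and VTN. For the difference between the lines they were COL1A2, COL6A1, COL6A3, LAMB1, VTN and PLOD2. The call that COL1A2 gained there, at -0.53 with limma on log2(FPKM + 1), had the opposite sign to the main fit. That fit gave 3.18 ± 1.74 and rested on 5 counts of COL1A2 in HCCLM3 si-circASH2 and none in HCCLM3 si-NC. A floor of 3 counts over a group, 0.0330 to 0.0338 CPM, was set for the bounds given against groups with no count. This floor was chosen and is not a measured limit of detection.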
